A study of Mus musculus with 25 samples.

Results

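The miR-21a hairpin gives a pair of mature miRNAs, miR-21a-5p and miR-21a-3p (mmu-miR-21a-5p and mmu-miR-21a-3p in the table). They were chosen by name, with earlier results of these data known, and they are 2 of the 1493 entries of the count table. Of these entries 1095 are named as mouse mature miRNAs. The material was small extracellular vesicles, the membrane-bound particles that cells release, collected from mouse liver. All animals were wild-type C57BL/6J mice with no treatment in the labels, in 5 age groups of 5 mice each, and each mouse gave 1 library. The ages were 1 week (mice 1, 3, 4, 5 and 27), 6 weeks (mice 6 to 10), 6 months (mice 11 to 15), 12 months (mice 16 to 20) and 14 months (mice 21 to 25). By the labels, a tumour dissociation kit broke up the livers, ultracentrifugation pelleted the vesicles and the small RNA was sequenced from QIAseq miRNA libraries. Both males and females were present, but the sex of a given mouse is not labelled. An age group of 5 mice cannot split evenly by sex, so the balance of sexes within an age is not known. The batch label repeats the age, so age and any difference in handling cannot be told apart.

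Library totals ran between 641579 and 6888928 counts. The deepest library was from a 1-week mouse, and the 6-week libraries were the shallowest as a group, with 641579 to 1738208 counts against 2095925 to 6888928 counts at 1 week. The arms differ greatly in abundance: miR-21a-5p holds 660245 counts over the 25 libraries, 1.26% of all counts, and miR-21a-3p holds 516 counts, 0.000988%. A library had between 7561 and 78937 counts of the 5p arm and between 2 and 81 counts of the 3p arm, so counting error is small for the 5p arm and large for the 3p arm.

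A miRNA hairpin is cut into a duplex, 1 strand of which is loaded into Argonaute as the guide, while its partner, the passenger strand, is mostly degraded. The guide pairs with messenger RNAs through its seed, the bases 2 to 8 from the 5′ end, and lowers their level and translation. The miR-21 guide is known for repressing Pdcd4, a growth brake, and the signalling inhibitors of the Sprouty family. It has been studied in liver regeneration, in liver tumours and in the activation of hepatic stellate cells, the collagen-making cells of liver fibrosis. Vesicles carry such miRNAs out of many cell types, and the libraries do not show which cell a copy came from.

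The mature sequences below, from RefSeq with the GRCm38.p6 build, show both arms and the paralogous miRNAs closest to the 5p arm in name; capitals mark the seed.
miR-21a-5p: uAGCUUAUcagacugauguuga
miR-21a-3p: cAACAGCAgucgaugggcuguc
miR-21c: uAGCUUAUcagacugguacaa
miR-21b: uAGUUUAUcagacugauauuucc

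The 5p arm lies at chr11:86584120-86584141 and the 3p arm at chr11:86584082-86584103, both on the minus strand. Mir21a lies within the 3′ untranslated region of a protein-coding Vmp1 transcript on the same strand, in the GENCODE vM21 annotation; Vmp1 encodes a membrane protein of autophagy. The arms have different seeds, AGCUUAU and AACAGCA, so they are not expected to pair with the same sites. Among 1679 mature miRNA names of the RefSeq table, miR-21c alone shares the 5p seed, and no other shares the 3p seed. These names cover 924 of the 1095 named entries of the count table, so a seed match outside them would be missed. miR-21c, at chr8:128278188-128278208, is identical to the 5p arm over its first 15 bases and differs from it by A16G, G18A, U19C, U20A and G21A, counted from the 5′ end. miR-21b, at chr3:29636768-29636790, differs within the seed by C4U and further on by G18A, G21U and A22C over 22 bases. Neither paralog has an entry under its name in the count table. miR-590-5p, whose seed or sequence is close to that of miR-21a-5p, was not analysed here, so miR-21c is not shown to be the only miRNA with this seed. How mismatched or ambiguous reads were assigned is not given in the sources used here, so reads of a paralog counted under miR-21a-5p cannot be separated from it.

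The 5p arm was 4.78- to 6.35-fold higher in the vesicles of the later ages than at 1 week, and its level did not pass the test between any of the later ages. Levels are in CPM, counts per 1000000, after TMM scaling, which adjusts library totals for a few dominant entries. At 1 week the 5 libraries had 4435, 3460, 2773, 3966 and 2173 CPM, in the order of the mice above. At 6 weeks they had 11278, 12337, 13545, 20414 and 22836 CPM. At 6 months they had 13376, 11842, 21667, 20083 and 19609 CPM. The highest 1-week library lies below the lowest library of these later groups.

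At 12 months the libraries had 16641, 13127, 14310, 17477 and 21912 CPM, the narrowest relative spread of the 5 ages. At 14 months they had 9986, 22327, 33850, 25799 and 14789 CPM, which includes both the lowest and the highest of the 20 libraries from 6 weeks on. The mean of the 1-week libraries was 3361 ± 906 CPM, that of the 6-week libraries 16082 ± 5194 and that of the 6-month libraries 17315 ± 4397 (SD, n = 5 each). The 12-month mean was 16694 ± 3400 CPM and the 14-month mean 21350 ± 9343 CPM (SD, n = 5 each). In order of mean level the ages run 1 week, 6 weeks, 12 months, 6 months and 14 months, and 1 week and 6 weeks are the only neighbours in that order whose libraries do not overlap. By rank of counts within a library, miR-21a-5p had a median rank of 15 at 1 week, 8 at 6 weeks and 6 months, and 9 at 12 and 14 months.

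**Figure D1:**
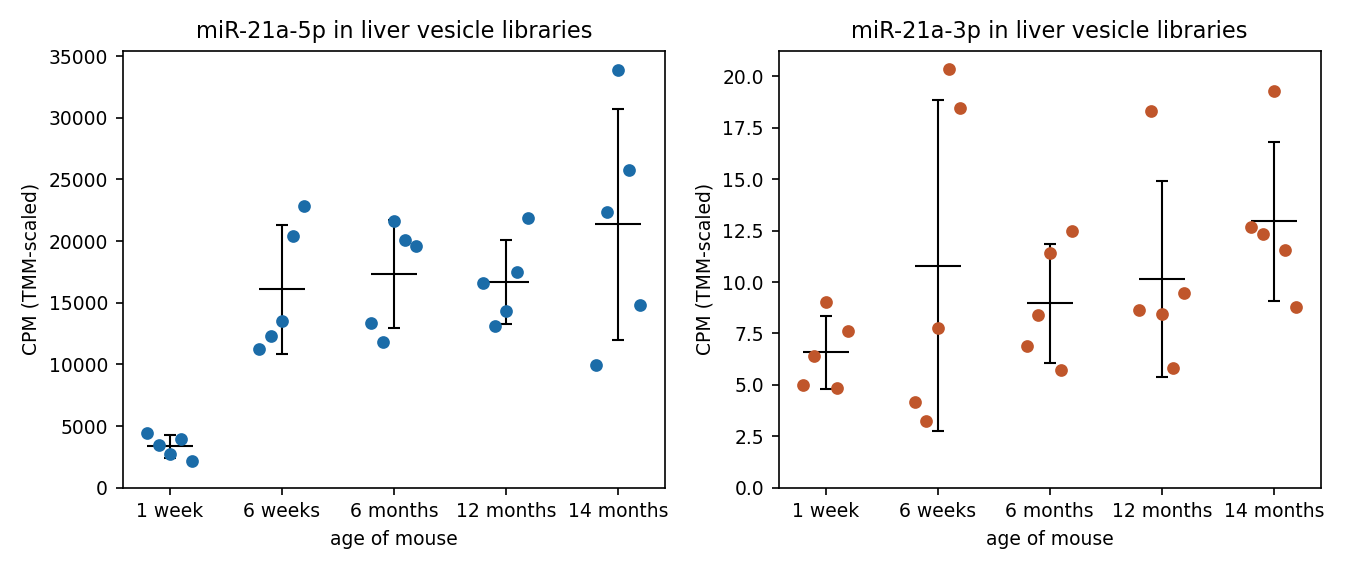
Level of miR-21a-5p (left) and miR-21a-3p (right) in CPM after TMM scaling, by age of the mouse; each point is 1 library and bars give the mean and SD of 5. The 5p arm sits between 2173 and 4435 CPM at 1 week and between 9986 and 33850 CPM at the later ages, while the 3p arm stays between 3.26 and 20.4 CPM and its ages overlap.

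In the quasi-likelihood test of edgeR over 391 tested entries, the 5p log2 fold change over 1 week was 2.26 ± 0.28 at 6 weeks (SE; fold 4.78; adjusted p = 8.42e-08). It was 2.37 ± 0.28 at 6 months (adjusted p = 3.61e-08 in edgeR), and 2.31 ± 0.28 at 12 months (adjusted p = 4.63e-08 in edgeR). At 14 months it was 2.67 ± 0.28 (fold 6.35; adjusted p = 5.03e-09 in edgeR). In each of these comparisons 5 of 5 later libraries were above every 1-week library. Such changes were common in the table: over 1 week, 35.0%, 36.8%, 33.2% and 35.5% of the tested entries were called higher at the 4 later ages in turn, and 28.6%, 29.2%, 24.0% and 24.8% were higher with groups that did not overlap. In either direction, 71.9%, 74.7%, 71.6% and 72.9% were called. A call of the 5p arm in these 4 comparisons is one of many, and the comparisons share the same 1-week libraries.

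Its size depended on the scaling. The 6-week change was 1.79 with the size factors of DESeq2 and 1.60 with library totals alone, both still called. These scalings moved the median change of all entries, 0.12 with TMM, by -0.46 and -0.66. They also moved the split of all calls at 6 weeks over 1 week, which was 137 higher and 144 lower with TMM, 107 and 165 with the size factors and 88 and 178 with library totals. On the plain scale of raw counts, the 5p arm made up 0.526 ± 0.165% of counts in the 1-week, 1.59 ± 0.538% in the 6-week, 1.58 ± 0.522% in the 6-month, 1.47 ± 0.211% in the 12-month and 1.78 ± 0.895% in the 14-month libraries (SD, n = 5 each). Each later age differed from 1 week by the exact two-sided permutation test (p = 0.00794, the smallest that 5 against 5 libraries can give; adjusted p = 0.0198 over 10 pairs of ages), with ratios between 2.80 and 3.38. Leaving out any 1 of the 5 1-week libraries (mouse 1, 3, 4, 5 or 27) put that adjusted exact p between 0.0529 and 0.0794. The remaining 1-week libraries still lay below every later library, and fewer libraries allow fewer splits in this test.

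Between the later ages the 5p differences were small against the spread. The log2 fold change was 0.41 ± 0.27 at 14 months over 6 weeks (SE; edgeR adjusted p = 0.380), 0.30 ± 0.27 over 6 months (edgeR adjusted p = 0.806) and 0.35 ± 0.27 over 12 months (edgeR adjusted p = 1). The change at 6 months over 6 weeks was 0.11 ± 0.27, that at 12 months over 6 weeks was 0.054 ± 0.27 and that at 12 over 6 months was -0.053 ± 0.27. Few entries passed in these pairs: 1.79% at 6 months over 6 weeks, 5.63% at 12 months over 6 weeks, 3.84% at 14 months over 6 weeks and 0 in the other 3, where 8 to 30 entries had an unadjusted p under 0.05 in edgeR and DESeq2 also called 0. A p that misses the threshold does not show equal levels.

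**Figure D2:**
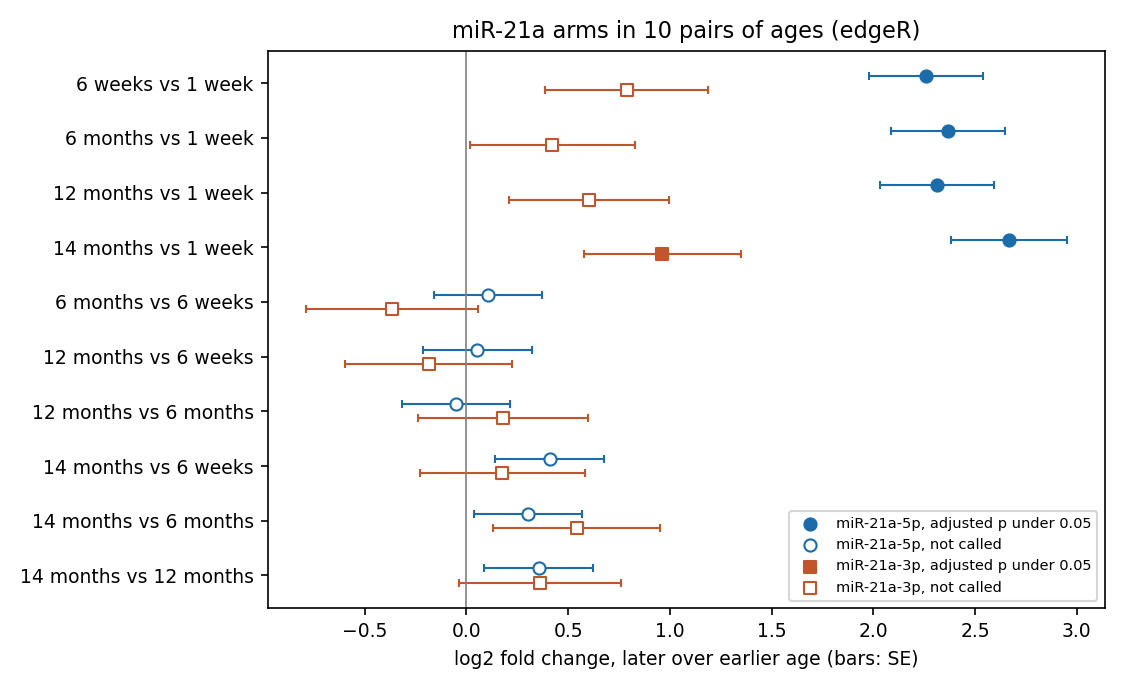
Log2 fold change of each miR-21a arm in the 10 pairs of ages, later over earlier age, from edgeR; bars give the SE and filled symbols an adjusted p under 0.05. The 5p arm is filled in the 4 comparisons with 1 week, between 2.26 and 2.67, and the 3p arm in 1 of them.

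The passenger arm, miR-21a-3p, was a rare entry at every age. At 1 week it had 4.99, 6.42, 9.02, 4.86 and 7.63 CPM. At 6 weeks it had 4.19, 3.26, 7.74, 20.4 and 18.4 CPM, so mice 9 and 10 were above every 1-week library and mice 6 and 7 below every one. At 6 months it had 6.87, 8.39, 11.4, 5.73 and 12.5 CPM. These groups overlap, and the counts behind the lowest values, 3 in mouse 6 and 2 in mouse 7, are few.

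At 12 months the 3p arm had 8.65, 18.3, 8.45, 5.82 and 9.45 CPM. At 14 months it had 12.7, 12.4, 19.3, 11.6 and 8.79 CPM, and 4 of 5 libraries were above every 1-week library. The mean was 6.58 ± 1.77 CPM in the 1-week, 10.8 ± 8.05 in the 6-week, 8.97 ± 2.89 in the 6-month, 10.1 ± 4.77 in the 12-month and 12.9 ± 3.87 in the 14-month libraries (SD, n = 5 each). No neighbours in the order of these means were free of overlap.

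The 3p arm passed the test in 1 of the 10 pairs, with a log2 fold change of 0.96 ± 0.39 at 14 months over 1 week (SE; edgeR adjusted p = 0.0286; 72.9% of entries called in either direction). This call was lost with the size factors of DESeq2 (0.49, edgeR adjusted p = 0.273), with library totals alone (0.074, edgeR adjusted p = 0.884), without mouse 1 (0.89, edgeR adjusted p = 0.0561) and without mouse 23 (0.85, edgeR adjusted p = 0.0716). Over 1 week the change was 0.79 ± 0.40 at 6 weeks (edgeR adjusted p = 0.0792), 0.42 ± 0.41 at 6 months (edgeR adjusted p = 0.348) and 0.60 ± 0.39 at 12 months (edgeR adjusted p = 0.171); with library totals alone the 6-month and 12-month values were -0.34 and -0.17. The 6-week change passed without mouse 6 (1.00, edgeR adjusted p = 0.0321) or without mouse 7 (1.00, edgeR adjusted p = 0.0296). Over all 5 ages at once the 5p arm passed the edgeR F test (adjusted p = 9.49e-08; 75.4% of entries passed) and the 3p arm did not (adjusted p = 0.195).

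The arm ratio sets the arms against each other within a library, so it does not depend on the scaling. The 3p arm made up 0.112%, 0.185%, 0.324%, 0.122% and 0.350% of miR-21a counts in the 1-week libraries. It made up 0.0371%, 0.0264%, 0.0571%, 0.0996% and 0.0807% at 6 weeks, and 0.0513%, 0.0708%, 0.0526%, 0.0285% and 0.0636% at 6 months. All 10 of these later libraries lie below the 1-week libraries.

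At 12 months the 3p share was 0.0519%, 0.139%, 0.0590%, 0.0333% and 0.0431%, and at 14 months 0.127%, 0.0553%, 0.0570%, 0.0448% and 0.0594%. Mouse 17 at 12 months and mouse 21 at 14 months reached the range of the 1-week libraries, and the other 4 of each age were below it. As a ratio, the mean number of 5p counts per 3p count was 567 in the 1-week, 2093 in the 6-week, 2067 in the 6-month, 1932 in the 12-month and 1652 in the 14-month libraries. Pooled over an age, 178 counts of the 3p arm gave a share of 0.224% at 1 week (exact 95% binomial interval 0.192 to 0.259%). The pooled shares at 6 weeks, 6 months, 12 months and 14 months were 0.0735%, 0.0481%, 0.0555% and 0.0588%, with intervals that together run between 0.0361 and 0.0933% and cover counting error only.

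**Figure D3:**
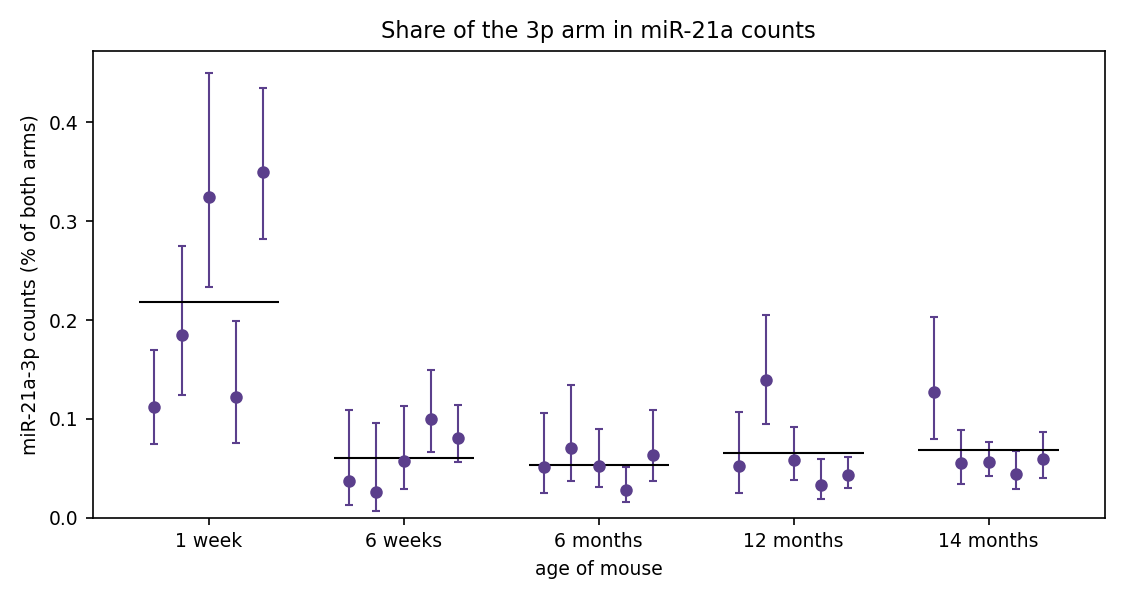
Share of the 3p arm in the counts of both miR-21a arms, in percent, by age of the mouse; each point is 1 library with its 95% Wilson interval, which covers counting error only, and the line is the mean of 5. The 1-week libraries sit between 0.112 and 0.350%, and mouse 17 at 12 months (0.139%) and mouse 21 at 14 months (0.127%) are the later libraries that reach that range.

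The mean 3p share was 0.0602 ± 0.0302% at 6 weeks against 0.219 ± 0.112% at 1 week (SD, n = 5 each; exact two-sided permutation p = 0.00794). Adjusted over the 95 hairpins with at least 20 counts of both arms together in each library, this exact test gave p = 0.0539, and 0 hairpins passed in this pair, with 23 at an unadjusted p under 0.05. Groups did not overlap for 14.7% of the hairpins. The mean was 0.0534 ± 0.0160% at 6 months against the same 1-week libraries (exact permutation p = 0.00794, adjusted p = 0.0628; no overlap in 12.6% of hairpins). It was 0.0653 ± 0.0425% at 12 months (exact permutation p = 0.0238, adjusted p = 0.0870) and 0.0687 ± 0.0330% at 14 months (exact permutation p = 0.0238, adjusted p = 0.108). At 12 months 16.8% of hairpins passed. At 6 months and 14 months 0 did, with 23 and 27 at an unadjusted p under 0.05. With 5 against 5 libraries no p can lie below 0.00794, the value of miR-21a in the 6-week and 6-month pairs. Whether this smallest p passes rests on how many hairpins without overlap share it. Such hairpins numbered 16 at 12 months, 14 at both 6 weeks and 14 months, and 12 at 6 months. For the 6-week and 6-month pairs the adjusted p therefore cannot decide whether the miR-21a share differed. Between the later ages the adjusted p of the exact permutation test ran between 0.899 and 1.

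A model of the counts, edgeR's test of arm usage within a hairpin, was added after the data were seen. This model has no term for the library, so it does not use the pairing of both arms within a library. It put the log2 change of the 3p arm relative to the 5p arm, over 1 week, at -1.43 at 6 weeks (adjusted p = 0.0130 over 95 hairpins), -1.94 at 6 months (adjusted p = 0.00114), -1.67 at 12 months (adjusted p = 0.00292) and -1.69 at 14 months (adjusted p = 0.00201). In this model the 3p arm of miR-21a fell relative to the 5p arm at each later age, and calls were common among the hairpins: 31.6%, 26.3%, 36.8% and 35.8% of them were called at 6 weeks, 6 months, 12 months and 14 months, in either direction, and 15.8%, 12.6%, 15.8% and 14.7% with the 3p arm lower. None of the 6 pairs of later ages passed for miR-21a, with adjusted p between 0.820 and 1.00; at most 3.16% of hairpins were called in such a pair, at 14 months over 6 weeks, with 1.05% at 12 months over 6 weeks and 0 in the others.

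Among the 95 hairpins, miR-21a ranked 30 by the share of its minor arm, counted from the lowest, and the median minor arm share was 0.545%. The 5 hairpins nearest to the median 3p share of miR-21a, 0.0590% over 25 libraries, were miR-122 (0.0544%), let-7e (0.0334%), let-7b (0.0251%), let-7g (0.0240%) and miR-26b (0.0133%), all with a dominant 5p arm. The 3p share was lower at 6 weeks than at 1 week in 51 hairpins and higher in 43.

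The spread between mice of 1 age differed between the arms. The coefficient of variation of the 5p arm was 27.0% in the 1-week, 32.3% in the 6-week, 25.4% in the 6-month, 20.4% in the 12-month and 43.8% in the 14-month libraries. For the 3p arm it was 26.9%, 74.6%, 32.2%, 47.1% and 29.9% at the same ages, where counting at the mean count alone gives 16.8%, 27.3%, 30.7%, 23.4% and 19.8%. The 3p spread was nearest to the counting error at 6 months and farthest above it at 6 weeks. The pooled SD of log2 CPM within ages was 0.47 for the 5p arm and 0.62 for the 3p arm. Among 141 named miRNAs with a mean of at least 50 CPM, 38 had a larger SD within ages than the 5p arm, and the median was 0.34.

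Over the 20 libraries from 6 weeks on, libraries with more of the 5p arm tended to have more of the 3p arm. Pearson's r of log2 CPM was 0.502 (permutation p = 0.0249; adjusted p = 0.0748 over 3 relations) and Spearman's rho was 0.495 (permutation p = 0.0291; adjusted p = 0.0436). Without the 2 libraries farthest from the median of the 5p arm, r was 0.532, and as deviations from the age means it was 0.459 (adjusted permutation p = 0.128), with a rho of 0.508 (adjusted permutation p = 0.0465). The log2 library total and the 5p arm had an r of 0.437 (permutation p = 0.0542; adjusted p = 0.0813) and a rho of 0.513 (permutation p = 0.0216; adjusted p = 0.0436). With levels scaled by library totals alone this relation did not pass, with an r of 0.171 (adjusted permutation p = 0.705) and a rho of 0.173 (adjusted permutation p = 0.696). Without the 2 libraries farthest from the median total, r was 0.514 with TMM and 0.296 with library totals alone (permutation p = 0.233 for the latter). With TMM and as deviations from the age means, r was 0.392 (adjusted permutation p = 0.134), with a rho of 0.489 (adjusted permutation p = 0.0465). The third relation, library total with the 3p share, had an r of -0.0794 (permutation p = 0.743) and a rho of 0.0045 (permutation p = 0.987), with r at -0.0104 without the 2 farthest libraries. A single age holds 5 libraries, too few for a correlation of its own.

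The entries whose pattern was most like the 5p arm, by Pearson's r of log2 CPM over 25 libraries among 140 candidates with a mean of at least 50 CPM, were miR-32-5p (r = 0.946), miR-30b-5p (0.942), miR-22-5p (0.931), miR-101b-3p (0.929) and miR-101a-3p (0.927). These values describe a pattern that the step between 1 week and the later ages dominates: miR-32-5p averaged 26.4 CPM in the 1-week, 137 CPM in the 6-week and 174 CPM in the 14-month libraries. The libraries share their depth and age, and the last 2 entries have nearly equal counts, so they are not separate results. Within the 20 later libraries the nearest entries were miR-134-5p (0.671), miR-140-3p (0.663), miR-1839-5p (0.642), miR-32-5p (0.615) and miR-376b-3p (0.610). Of these, miR-134-5p averaged at most 3.99 CPM at the later ages, against 287 CPM at 1 week, so it met the mean of 50 CPM, which was taken over all 25 libraries, through the 1-week libraries alone, and its value rests on few counts.

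For the 3p arm the nearest entries over 25 libraries were miR-190a-5p (r = 0.591), miR-34a-5p (0.585), miR-140-3p (0.559), miR-15a-5p (0.485) and miR-338-3p (0.459). miR-34a-5p, a target of p53, averaged 368 CPM at 1 week and 761 CPM at 14 months. Over the 20 later libraries they were miR-409-3p (0.688), miR-376b-3p (0.664), miR-134-5p (0.642), miR-32-5p (0.604) and miR-34a-5p (0.548), of which miR-409-3p averaged between 4.61 and 6.40 CPM at the later ages against 470 CPM at 1 week. Like miR-134-5p, it met the minimum level through the 1-week libraries, so little can be read from the place of either. No entry of either 3p list reached an r of 0.7.

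Other miRNAs of growth and fibrosis are set beside the 5p step. The lists used here and below were chosen with earlier results of these data known. Their counts beside the share of all entries are a description and not independent evidence. Of 12 miRNAs reported to promote growth or fibrosis, 3 rose, 2 fell and 7 did not pass at 6 weeks against 1 week. Of all entries in this edgeR test 71.9% passed, 35.0% called higher and 36.8% lower. The list's median log2 fold change was 0.17 against 0.12 over all entries tested. The rises were miR-221-3p (2.18 ± 0.17, SE; edgeR adjusted p = 5.21e-11) and its cluster partner miR-222-3p (1.12 ± 0.24; edgeR adjusted p = 0.000223), which repress cell cycle inhibitors, and miR-19b-3p of the miR-17-92 cluster (0.99 ± 0.22; edgeR adjusted p = 0.000332). The largest fall was miR-155-5p, a miRNA of activated immune cells (-2.16 ± 0.51; edgeR adjusted p = 0.000509). The list's split was 2 higher and 5 lower with the size factors of DESeq2, and 1 higher and 6 lower with library totals alone. Calls moved in the same way over all 391 entries tested. They were 107 higher and 165 lower with the size factors, and 88 higher and 178 lower with library totals alone.

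Of 14 miRNAs reported to restrain growth or fibrosis, 13 were tested, as miR-133a-3p was too rare. At 6 weeks against 1 week 10 of them rose, 1 fell and 2 did not pass in edgeR, with a median log2 fold change of 1.45; of all entries tested 35.0% were called higher and 36.8% lower, with a median of 0.12. The largest was miR-29b-3p, which represses collagen messenger RNAs (3.88 ± 0.27, SE; edgeR adjusted p = 8.66e-12). let-7g-5p, of a family that represses growth factors and Ras, rose by 3.15 ± 0.19 (edgeR adjusted p = 7.70e-13). Of the growth-restraining miR-30 family, miR-30a-5p rose by 1.37 ± 0.11 (edgeR adjusted p = 9.73e-11) and miR-30c-5p by 1.93 ± 0.16 (edgeR adjusted p = 9.77e-11). miR-200b-3p, an epithelial miRNA, was the 1 that fell with TMM and all 25 libraries (-1.43 ± 0.23, edgeR adjusted p = 5.87e-06). Without 1 library 10 to 11 rose, and 2 fell in 21 of 25 such fits. With the size factors of DESeq2, and also with library totals alone, 9 rose and 2 fell. Over all entries tested these scalings called 107 and 88 higher and 165 and 178 lower. The 5p change of miR-21a, 2.26, lies beside larger and smaller changes of miRNAs with the opposite reported role.

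Fewer members passed between later ages. At 14 months against 6 weeks, 2 of the 12 promoting miRNAs rose and 10 did not pass in edgeR, where 3.84% of all entries passed in either direction and 3.32% were called higher. They were miR-221-3p (0.61 ± 0.16, SE; edgeR adjusted p = 0.0329) and miR-222-3p (0.86 ± 0.24; edgeR adjusted p = 0.0429), and with library totals alone or without mouse 8, 10 or 21 there were 0; without mouse 6, 7, 9, 22, 23, 24 or 25 there was 1. Of the 13 restraining miRNAs 3 rose and 10 did not pass: miR-29b-3p (1.82 ± 0.25; edgeR adjusted p = 2.08e-05), with miR-29c-3p and miR-29a-3p at 1.44 ± 0.30 each (edgeR adjusted p = 0.00443) and nearly equal counts. Neither miR-21a arm passed in this pair.

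**Figure D4:**
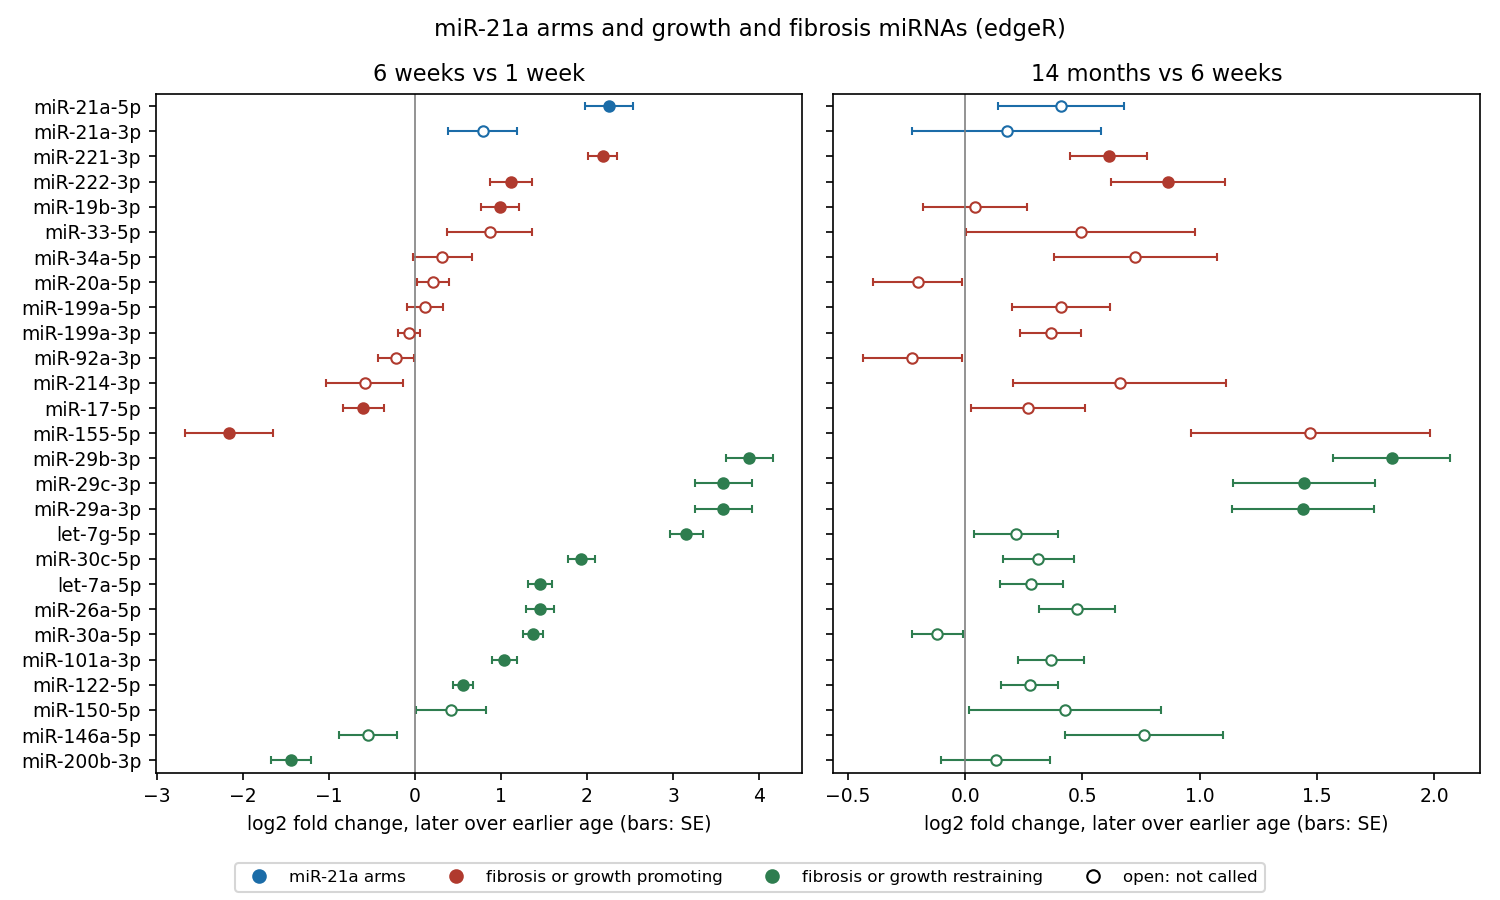
Log2 fold change, later over earlier age, of the miR-21a arms and the tested members of both lists at 6 weeks against 1 week (left) and at 14 months against 6 weeks (right), from edgeR; bars give the SE, filled points an adjusted p under 0.05, and the axes differ in range. miR-21a-5p lies at 2.26 on the left, beside miR-221-3p at 2.18 and below miR-29b-3p at 3.88, and at 0.41 on the right.

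The hepatocyte miRNAs of liver were abundant at every age, and marker miRNAs moved with age. Summed levels of the 5 hepatocyte miRNAs, which include miR-122-5p, were 668246 to 756076 CPM at 6 weeks and 399945 to 572121 CPM at 1 week, and 5 of 5 rose, where 35.0% of all tested entries were called higher. The 2 endothelial arms of miR-126a summed to 44626 to 53622 CPM at 6 weeks and 21071 to 38902 CPM at 1 week, with 1 called higher. The 5 stellate and smooth muscle miRNAs summed to 6296 to 7668 CPM at 6 weeks and 3878 to 5988 CPM at 1 week, with 2 called higher. With TMM the sums of these 3 lists did not overlap between the ages, but with library totals alone they did: 662223 to 716858 CPM at 6 weeks and 643669 to 744200 CPM at 1 week for the hepatocyte list. The calls changed too, in a check added after the data were seen. With library totals alone 3 hepatocyte miRNAs were called higher, 1 endothelial and 3 stellate and smooth muscle miRNAs lower, and none of the endothelial or stellate lists higher. In that setting 88 of all 391 tested entries were called higher and 178 lower. With the size factors of DESeq2 the calls were 3 hepatocyte and 1 endothelial miRNA higher, and 1 stellate and smooth muscle miRNA higher and 2 lower. Over all 391 tested entries these size factors gave 107 higher and 165 lower.

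Most members of the other lists fell at 6 weeks, where 36.8% of all tested entries were called lower. The 5 immune miRNAs summed to 2162 to 2837 CPM at 6 weeks and 4964 to 5589 CPM at 1 week, and 4 fell. The 5 epithelial miRNAs summed to 354 to 463 CPM at 6 weeks and 846 to 1367 CPM at 1 week, and 5 fell. The 4 erythroid miRNAs summed to 165 to 485 CPM at 6 weeks and 308 to 819 CPM at 1 week, and 3 fell, although these sums overlap; the 3 muscle miRNAs summed to 1.63 to 7.14 CPM at 6 weeks and 58.0 to 1122 CPM at 1 week, and both that were tested fell. miR-155-5p is also an immune marker here, miR-200b-3p an epithelial and miR-122-5p a hepatocyte one. Whether these marker shifts have a part in the miR-21a-5p step was not tested, and fewer vesicles of a cell type cannot be told apart from less of a miRNA in each vesicle.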

How the data were processed

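The authors deposited 1 table of raw counts per miRNA entry for 25 libraries, checked here to hold whole numbers. Per the submitters' processing notes, Bowtie, edgeR and the mouse build mm10 were used; versions, the miRNA annotation, mismatches and the use of molecular identifiers are not given in the sources used here, so intervals cover counting error only. No 2 libraries of the same age held identical counts, and over these 50 pairs chi-squared per degree of freedom was at least 16.3. Within an age only the mouse numbers tell the animals apart, so p-values set a difference against the spread between these mice. A difference between ages also includes any difference in handling, as the batch label repeats the age.

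Counts were fitted with edgeR 4.0.16 in R 4.3.3 (TMM, filterByExpr, robust quasi-likelihood) over all 25 libraries: 391 entries were tested and 1102 were not. p-values were adjusted by Benjamini-Hochberg over the 391 entries in each of 10 pairs of ages, with a threshold of 0.05. SE is the size of the log2 fold change divided by the root of F, an approximation. DESeq2 1.42.0 was an alternative. Exact two-sided permutation tests compared shares (scipy 1.17.1), and correlations had 100000 permutations. The fit was also run on simulated counts with equal numbers of raised and lowered entries and a fixed dispersion. That simulation does not check the dependence on scaling described above. Sequences were matched by name to RefSeq, which covered 924 of 1095 named entries.

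Named are both arms, up to 4 members of each list per comparison with the smallest adjusted p, the 5 entries most like each arm and the 5 hairpins nearest in 3p share; a few others were named after their values were seen. The members and lists were chosen with earlier results of these data known. The labels give each mouse its own number, so ages are unpaired.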

Additional observations from a re-analysis of the deposited data

Results flagged for a closer look

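In 2 of 20 groups of 5 libraries looked at, 1 library stood apart from the other 4 by Dixon's criterion of 0.71 for the gap over the range; chance gives about 1 in 20. Both are values of the miR-21a-3p share. At 12 months mouse 17 had a 3p share of 0.139%, from 25 counts of the 3p arm, with a gap over range of 0.758. At 14 months mouse 21 had a 3p share of 0.127%, from 17 counts of the 3p arm, with a gap over range of 0.823.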

How the results depend on the processing

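No paired analysis was possible because each mouse has a number of its own and no age shares one with another. Every edgeR and DESeq2 alternative run left the 5p arm on its side of the threshold in each pair of ages, and no result of either arm that passed reversed. For the 3p arm at 14 months over 1 week, the unpassed alternatives were 0.49 with DESeq2 size factors, 0.074 with library totals, 0.81 with no filter (edgeR adjusted p = 0.174) and 0.49 with the DESeq2 Wald test (adjusted p = 0.250). Leaving out 1 library gave 0.85 to 1.18 there and 0.48 to 1.00 at 6 weeks over 1 week. The causes were not tested. The 3p share at 6 weeks over 1 week passed as a log2 arm ratio (-1.76). At 6, 12 and 14 months over 1 week this ratio did not pass. Adjustment over the hairpins makes this split depend also on how many other hairpins have low p-values. The added arm usage model passed at 6 weeks, 6 months, 12 months and 14 months over 1 week (-1.43, -1.94, -1.67 and -1.69). Leaving out 1 library put the difference in share between -0.185 and -0.126 at 6 weeks. The difference in 5p percent of counts ran between 0.913 and 1.20 at 6 weeks over 1 week, 0.861 and 1.18 at 6 months, 0.868 and 1.00 at 12 months, and 0.907 and 1.48 at 14 months without 1 library. For the relation of the arms, r was 0.595 with library totals (adjusted permutation p = 0.0189), and 0.408 to 0.608 without 1 library; that of depth and the 5p arm was 0.171 with library totals (adjusted permutation p = 0.705) and 0.376 to 0.533 without 1 library. Counts of promoting miRNAs at 6 weeks over 1 week were 5 lower with DESeq2 size factors, and 1 higher and 6 lower with library totals. Among all 391 tested entries, 165 were called lower with the size factors, and 88 higher and 178 lower with library totals. Promoting miRNAs called lower were 1 to 2 without 1 library. Restraining miRNAs had 2 lower with either scaling and 1 to 2 without 1 library. Promoting miRNAs higher at 14 months over 6 weeks were 0 with library totals and 0 to 2 without 1 library. Depth limits the 3p arm, with 2 to 81 counts a library.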
